A study of Homo sapiens with 7 samples.

Results

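The genes described here are 40 early response genes and feedback inhibitors of ERK signalling, chosen by name for their roles in that pathway. Of these, 38 were measured, among 19775 genes represented on the arrays. A gene was measured where at least 1 probe set was annotated to its symbol alone. For the 23 genes with several such probe sets, the one of highest mean over the 7 arrays stood for the gene and the others were checked against it. EGR2 and BTG2 were not analysed here.

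The cells were of Panc1, a human cell line established from a pancreatic cancer, and the study looked for genes whose expression follows S100P, a small calcium-binding protein. Clones 5 and 1, labelled as overexpressing S100P, had received pcDNA3.1/S100P-V5-His and were measured on 2 arrays each, called a and b after their labels. Clone V1, with 1 array, and clone V3, with arrays a and b, had received the empty plasmid pcDNA3.1/V5-His. Every clone was grown from a single cell, so each arm consisted of 2 lines, and what the introduced gene did cannot be told apart from differences between 2 chosen cells on either side. All clones were kept in DMEM with fetal bovine serum and were collected before confluence, and the labels name no added stimulus. The label of V1 starts with a different prefix, so for V1 the clone and a separate handling of the array cannot be told apart.

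Growth factor receptors activate ERK1 and ERK2 through the kinases RAF and MEK, and active ERK switches on a first wave of genes within minutes, without new protein synthesis. The wave holds transcription factors, among them the FOS and JUN proteins that pair to form AP-1, the EGR zinc-finger factors, MYC and several KLF factors. It also holds inhibitors that act back on the pathway, namely the Sprouty and SPRED proteins upstream of RAF and the dual-specificity phosphatases (DUSP) that remove the activating phosphates from ERK and related kinases.

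Promoter windows show which response elements some of these genes carry close to their start. RefSeq windows on GRCh38.p14, from 250 bases before to 50 bases after each annotated start, were matched for 27 of the 38 genes and gave 41 windows. They were searched on both strands for the CArG box, which the serum response factor binds, and for the CRE (TGACGTCA), the AP-1 site (TGANTCA) and an ETS site (CCGG followed by AAGT). None of these motifs contains another. A CArG box was found in 1 of the 41 windows, that of EGR1, against 1.29% of 35116 windows of all genes. A CRE was found in 3 windows (7.32%), those of JUND, MAFF and DUSP1, against 1.85% of all windows. The AP-1 site was found in 3 windows (7.32%), of FOSL2, CREB5 and SPRED2, against 7.71% of all windows. The ETS site was found in 0 of the 41, against 4.14% of all windows. These matches describe letters in the sequence and not binding. The 220 bases upstream of the start are shown for the 5 genes that were called lower in clone 5 than in clone 1, as given further on, and whose match lies before the start, with the matched letters in capitals. The match of FOSL2 lies after its start. EGR1 lies on the plus strand (chr5:138465259-138465478), with CArG boxes that begin 105 and 83 bases before the start. MAFF lies on the plus strand (chr22:38201774-38201993; 1 of 2 annotated starts), with a CRE 54 bases before the start. DUSP1 lies on the minus strand (chr5:172771196-172771415), with a CRE 125 bases before the start. JUND lies on the minus strand (chr19:18281623-18281842), with a CRE 200 bases before the start. CREB5 lies on the plus strand (chr7:28685913-28686132; 1 of 3 annotated starts), with an AP-1 site 44 bases before the start.
EGR1: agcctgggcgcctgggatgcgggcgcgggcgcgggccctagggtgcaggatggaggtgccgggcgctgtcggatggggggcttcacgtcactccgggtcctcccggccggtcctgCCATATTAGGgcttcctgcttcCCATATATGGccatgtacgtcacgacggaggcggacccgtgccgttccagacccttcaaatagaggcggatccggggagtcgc
MAFF: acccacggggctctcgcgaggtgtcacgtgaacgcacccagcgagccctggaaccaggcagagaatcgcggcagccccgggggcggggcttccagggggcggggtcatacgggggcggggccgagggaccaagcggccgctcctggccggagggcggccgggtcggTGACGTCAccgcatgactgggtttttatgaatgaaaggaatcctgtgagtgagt
DUSP1: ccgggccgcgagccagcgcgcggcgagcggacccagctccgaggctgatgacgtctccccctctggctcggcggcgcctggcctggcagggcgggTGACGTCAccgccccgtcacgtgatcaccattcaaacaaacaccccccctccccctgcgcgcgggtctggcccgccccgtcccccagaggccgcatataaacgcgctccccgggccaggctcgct
JUND: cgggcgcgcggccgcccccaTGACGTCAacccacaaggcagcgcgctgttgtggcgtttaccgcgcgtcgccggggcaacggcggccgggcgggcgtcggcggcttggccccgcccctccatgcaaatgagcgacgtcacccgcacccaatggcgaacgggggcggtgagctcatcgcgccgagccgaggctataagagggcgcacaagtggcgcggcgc
CREB5: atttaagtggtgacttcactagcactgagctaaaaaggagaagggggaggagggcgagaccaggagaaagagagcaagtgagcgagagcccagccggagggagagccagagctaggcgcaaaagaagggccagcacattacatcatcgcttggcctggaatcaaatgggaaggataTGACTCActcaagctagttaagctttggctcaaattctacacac

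The arrays gave log2 values after RMA, a method that corrects background, normalizes arrays to each other and summarises probes, and a difference of 1 on this scale is a doubling. Medians over all probe sets lay between 4.51 and 4.59, and arrays of one clone correlated at 0.996 to 0.998. The S100P probe set did not separate the arms: it read 5.36 and 5.45 on clone 5, 5.80 and 5.95 on clone 1, 4.65 on V1 and 5.65 and 6.01 on V3. Its difference between the arms was 0.27 (SE 0.32, adjusted p = 0.846, limma). Whether that probe set lies within the introduced insert was not analysed here, so the arms are called by their labels. All 8 of the epithelial and ductal markers checked had a mean of 6 or more, and their summed level on the log2 scale was 13.7 to 14.4 on the S100P-labelled arrays and 14.2 to 14.7 on the vector arrays. Some of them moved with the clones: in clone 5 minus clone 1 the keratins KRT8, KRT18 and KRT19 were called higher (1.15, 0.69 and 1.32), and in clone 1 minus the vector clones they were called lower (-1.44, -0.86 and -1.23). CDH1 was called higher in clones 5 and 1 than in the vector clones (2.32 and 2.68) and lower in V1 minus V3 (-2.43), where KRT8 and KRT19 were lower too (-0.74 and -0.61). KRT7 was called lower in clones 5 and 1 than in the vector clones (-0.70 and -0.97) and SOX9 higher (0.77 and 0.93). Their part in the results was not tested. None of the 4 leukocyte, 4 endothelial and 2 acinar markers measured reached a mean of 6, and 1 of 5 fibroblast markers did, COL1A1. The summed levels of these lists were 7.47 to 7.78 on S100P-labelled arrays against 7.26 to 7.60 on vector arrays for fibroblasts, 5.81 to 6.14 against 5.89 to 6.0 for leukocytes, 6.15 to 6.71 against 6.28 to 6.40 for endothelium and 4.68 to 4.90 against 4.80 to 5.00 for acinar cells.

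The pattern over the arrays followed clone 1. Each gene was set against its own mean over the 7 arrays. The median of the 38 genes was then -0.19 and -0.09 for clone 5, 0.49 and 0.45 for clone 1, -0.24 on V1 and -0.14 and -0.03 on V3. The same median over all genes stayed between -0.03 and 0.01 on every array. On clone 1, 32 genes on array a and 34 on array b lay above their own mean, whereas on V1 only 7 did. In bulk RNA, a smaller number of expressing cells and less RNA per cell cannot be told apart. One measure of RNA integrity moved with this pattern, the log2 value of ACTB at its 3′ control probe set minus that at its 5′ one. It was 0.287 and 0.268 on clone 5, 0.528 and 0.444 on clone 1, 0.177 on V1 and 0.276 and 0.324 on V3. For GAPDH it was 0.0742 and 0.0551 on clone 5, 0.0790 and 0.0820 on clone 1, 0.00657 on V1 and 0.0925 and 0.139 on V3. Their part in the result was not tested.

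**Figure D1:**
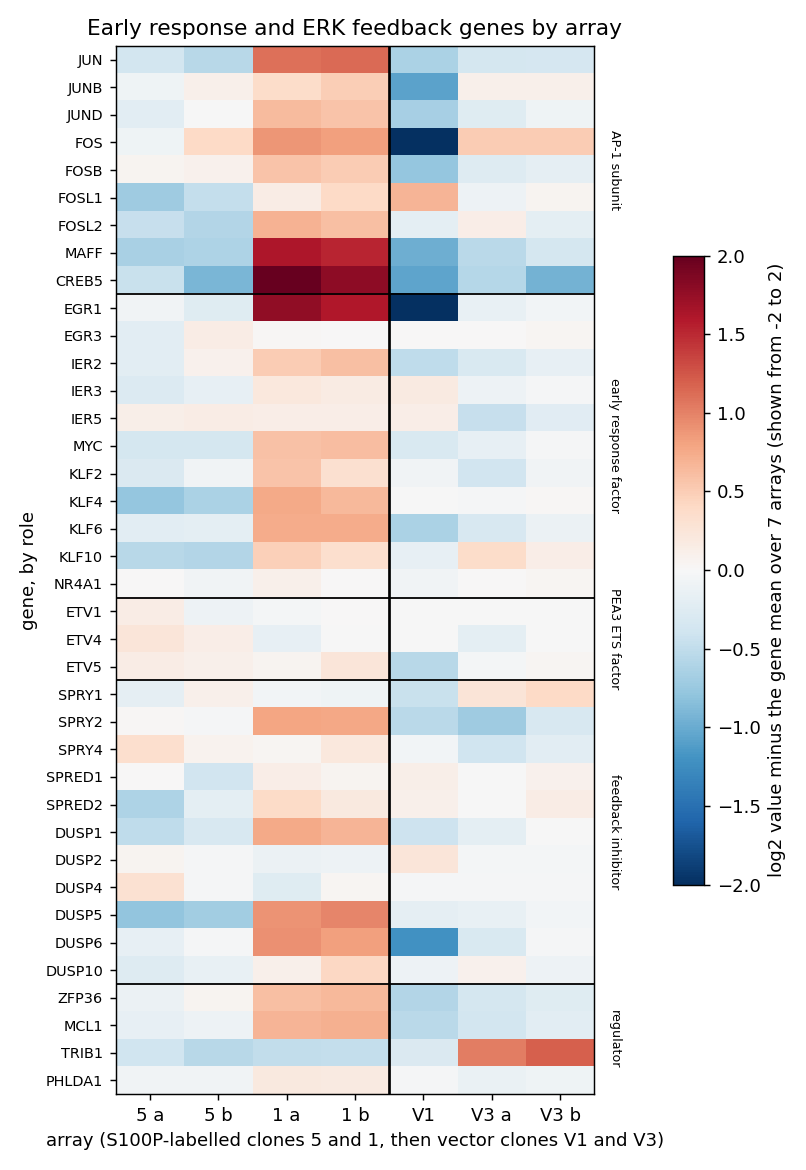
Log2 value of each of the 38 genes minus its own mean over the 7 arrays, with genes in rows by role and arrays in columns (clones 5 and 1, then vector clones V1 and V3), and colours limited to the range from -2 to 2. The 2 columns of clone 1 are mostly red, with medians of 0.49 and 0.45, and V1 holds the deepest blue cells, FOS and EGR1.

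Differences between clones of one arm made up most of the spread of these genes. Split by gene, the sum of squares over the arrays lay between the arms for a median of 23.0%, between clones of one arm for 60.5% and between arrays of one clone for 2.98%. Over all genes the corresponding medians were 19.9%, 38.5% and 28.3%. The share between clones was the largest of the 3 in 26 of the 38 genes (68.4%) and in 42.4% of all genes. Bright genes have a smaller share between arrays. Among genes of mean 6 or more, the share between clones was the largest in 23 of the 32 genes described here and in 50.1% of all. These shares are a description with no test. They are not divided by their degrees of freedom, which are more between clones than between the arms and most between arrays. The size of one share against another therefore depends on the design, while the same split was used for all genes.

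Between the arms, none of the 38 genes passed. The arms were compared with limma across all probe sets, with the clone as a random block, and an adjusted p under 0.05 (Benjamini-Hochberg) counted as a call. In this comparison 1.55% of all genes passed in either direction, and 0 of the 38 did. SPRY2 had the lowest adjusted p of them, 0.136. The difference was positive for 29 genes and negative for 9, and its median was 0.30, against -0.00 over all genes and 0.04 over genes of mean 6 or more. At an unadjusted p under 0.05, 10 genes were higher and 1 was lower, against 9.56% and 5.5% of all genes. In 6 genes all S100P-labelled arrays lay above all vector arrays (15.8%, against 8.67% of all genes), and in 1 gene all lay below (2.63%, against 5.51%). Among genes of mean 6 or more, these were 6 of 32 against 13.3% of all and 1 of 32 against 7.62%. At the unadjusted p they were 10 of 32 against 15.3% and 1 of 32 against 8.51%. The count depended on which clones were kept. Without clone 5, 12 genes passed, all higher, against 2.37% of all genes higher. Without clone 1, 2 passed, both lower, against 0.678% of all genes lower. Without V3, 2 passed, both higher, against 3.26% of all genes higher, and without V1 there was 1 higher and 1 lower, against 2.47% and 1.45% of all genes. Nothing in the labels states that arrays a and b were separate cultures. All p-values therefore rest on the spread of these arrays and clones alone, and part of it may be technical.

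**Figure D2:**
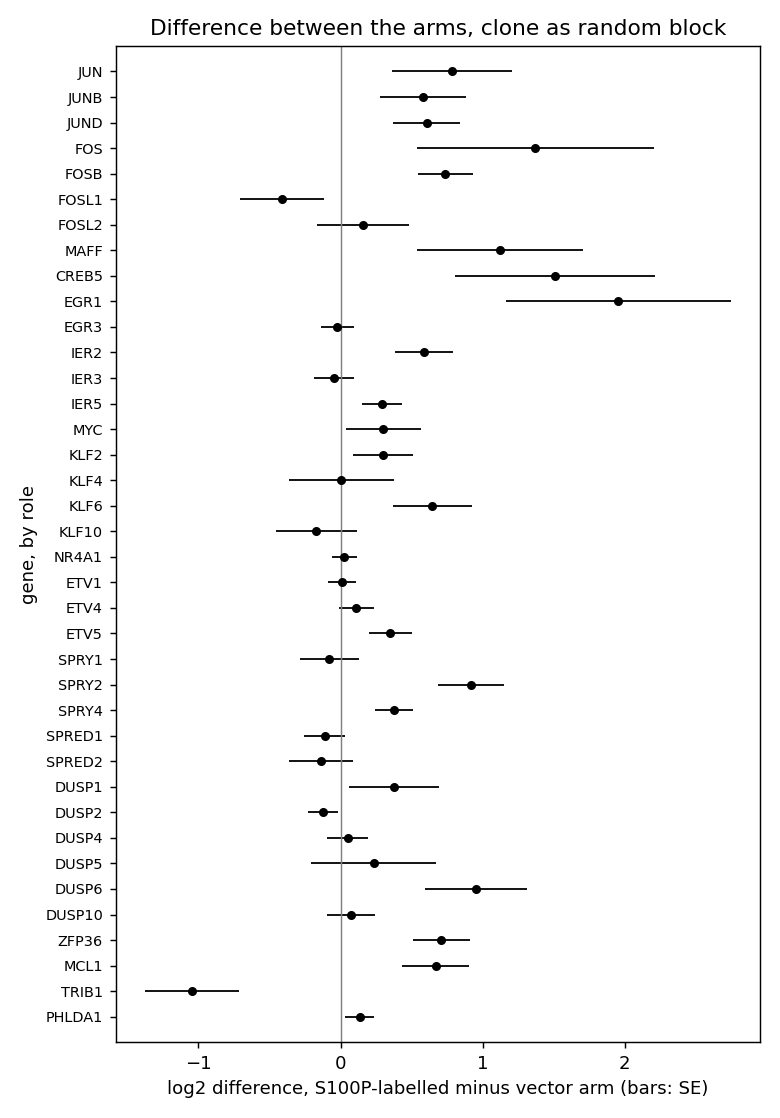
Difference in log2 value between the S100P-labelled and the vector arm for each of the 38 genes, with bars for the SE from the limma fit with the clone as a random block. Most points lie to the right of 0, EGR1 farthest at 1.95 and TRIB1 farthest left at -1.05, and the longest bars belong to FOS and EGR1.

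The clones of each arm did differ. A second limma fit took the 4 clones as groups, so that arrays of the same clone supplied the error, on 3 residual degrees of freedom. It compares these clones and not the introduced gene, and V1 with its single array was taken to vary like the others. In clone 5 minus clone 1, 18 of the 38 genes (47.4%) were lower and 0 were higher, where 2.35% of all genes were lower and 0.673% higher. In V1 minus V3, 8 genes (21.1%) were lower and 0 were higher, where 5.08% of all genes were lower and 2.64% higher. Among genes of mean 6 or more the shares lower were 17 of 32 against 3.81% of all in clone 5 minus clone 1, and 8 of 32 against 8.48% of all in V1 minus V3. The median difference was -0.64 in clone 5 minus clone 1, against 0.02 over all genes, and -0.18 in V1 minus V3, against 0.02 over all genes. With any 1 array of clone 5, clone 1 or V3 left out, 2 residual degrees of freedom remained. The calls then fell to 0 in clone 5 minus clone 1, where 0 of all genes passed either, and to between 0 and 4 in V1 minus V3, where 0% to 1.65% of all genes were lower. Over every alternative the 8 largest differences of clone 5 from clone 1 lay between -2.87 and -1.03. These genes were picked by the size of this difference, and the vector arrays cancel in it. Leaving out a vector array could therefore not move it, and the range is a description only.

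Each S100P-labelled clone was also set against the mean of V1 and V3, taken with equal weight. Both comparisons share the vector arrays, and clone 1 minus the vector clones shares the arrays of clone 1 with the comparison just given. In clone 5 minus the vector clones, 7 genes (18.4%) were higher and 5 (13.2%) lower, against 5.65% and 2.94% of all genes. In clone 1 minus the vector clones, 21 genes (55.3%) were higher and 1 (2.63%) was lower, against 11.7% and 5.75% of all genes. Among genes of mean 6 or more, clone 5 had 7 of 32 higher and 5 lower, against 9.21% and 4.81% of all. Clone 1 had 20 of 32 higher and 1 lower, against 19.7% and 9.53% of all. The medians were 0.03 for clone 5 and 0.65 for clone 1. With 1 array of clone 5, clone 1 or V3 left out, 1 to 5 genes passed for clone 5, where 0.324% to 2.59% of all genes were higher and 0.207% to 0.936% lower. For clone 1, 11 to 20 passed, where 1.64% to 9.32% of all genes were higher and 0.556% to 4.15% lower. By position alone, both arrays of clone 5 lay above all other arrays in 1 gene (2.63%, against 6.23% of all genes) and below them in 9 (23.7%, against 5.03%). Both arrays of clone 1 lay above all others in 23 genes (60.5%, against 13.5%) and below them in 1 (2.63%, against 11% of all genes). The V1 array lay above all others in 2 genes (5.26%, against 23.3%) and below them in 16 (42.1%, against 20.6%). The genes at the odd end of these counts were ETV4 (clone 5 highest), DUSP2 (clone 1 lowest, V1 highest) and FOSL1 (V1 highest), named after their values were seen. Among genes of mean 6 or more, clone 5 lay below all others in 8 of 32 (against 7.09% of all) and above in 1 (6.18%). Clone 1 lay above in 21 (22.7%) and below in 1 (12.3%), and V1 below in 14 (30.1%) and above in 2 (25.7%).

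The counts for clone 5 changed with the vector clone it was set against. With V3 as the only vector clone, 0 genes were higher in clone 5 and 4 were lower, namely TRIB1, KLF4, KLF10 and DUSP5, against 2.83% and 2.04% of all genes. With V1 as the only one, 8 were higher and 3 lower, against 7.19% and 3.92% of all genes. Clone 1 had 19 genes higher and 1 lower with V3 alone, against 6.65% and 3.23% of all genes. With V1 alone it had 21 higher and 0 lower, against 11.7% and 6.44% of all genes.

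**Figure D3:**
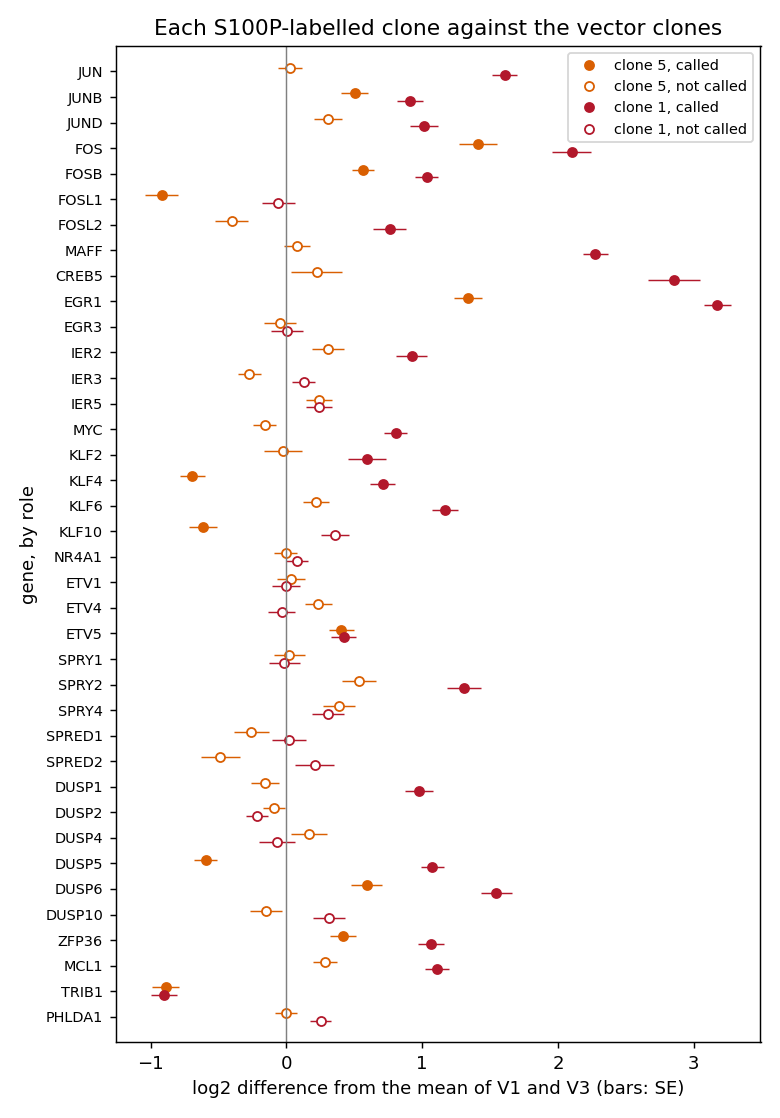
Difference in log2 value of clone 5 (orange) and of clone 1 (red) from the mean of vector clones V1 and V3 for each of the 38 genes, with bars for the SE from the limma fit by clone and filled points for an adjusted p under 0.05. Clone 1 has 22 filled points, 21 of them to the right of 0, and clone 5 has 12 on either side of 0.

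Of the 5 role groups, the AP-1 subunits were called most often. These are basic leucine zipper proteins that bind DNA as pairs. In clone 5 minus clone 1, 7 of 9 were lower, against 2.35% of all genes. In clone 1 minus the vector clones, 8 of 9 were higher, against 11.7% of all genes. The clone 1 calls of FOS and JUNB were lost against V3 alone. CREB5, which binds CRE-like sites, read 4.78 and 4.30 on clone 5, 7.35 and 7.0 on clone 1, 4.17 on V1 and 4.66 and 4.28 on V3. Only the arrays of clone 1 lay above 6, while the other 5 values lay close to the medians of their arrays. The difference of clone 5 from clone 1 was -2.63 (SE 0.20, adjusted p = 0.00248), and since signal over background was not measured its size is uncertain. Its second probe set by difference gave -2.21 and passed too, while the other 2 did not pass. MAFF, a small MAF protein without an activation domain, read 8.41 and 8.45 on clone 5, 10.68 and 10.58 on clone 1, 8.09 on V1 and 8.52 and 8.71 on V3. Clone 1 stood apart from all other arrays, and clone 5 was 4.59-fold lower than clone 1 (log2 difference -2.20, SE 0.10, adjusted p = 0.000915). The other MAFF probe set gave -1.48 and passed. JUN, the main partner of FOS, read 9.47 and 9.30 on clone 5, 10.95 and 10.97 on clone 1, 9.21 on V1 and 9.50 and 9.51 on V3. Clone 5 lay beside the vector clones (difference 0.03, SE 0.09, adjusted p = 0.909), and clone 1 lay 1.61 above them (SE 0.09, adjusted p = 0.000118). The probe set of JUN is of a type that can bind related transcripts, and its 3 other probe sets gave -2.24 to -1.53 in clone 5 minus clone 1, all called.

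For FOS, V1 was the array that stood apart. FOS read 6.67 and 7.14 on clone 5, 7.63 and 7.56 on clone 1, 3.73 on V1 and 7.27 and 7.27 on V3. V1 minus V3 was -3.54 (SE 0.19, adjusted p = 0.000678). The value on V1 lay below the median of that array, 4.56, and with no measure of background the size of this difference is uncertain. Clone 1 was 2.10 and clone 5 was 1.41 above the mean of the vector clones (SE 0.14 each), with adjusted p of 0.000259 and 0.00256, but against V3 alone the differences were 0.33 and -0.36 and neither passed. Between the arms FOS differed by 1.37 (SE 0.83, adjusted p = 0.609), without V1 by -0.01, and without V3 by 3.53 with an adjusted p of 0.0323.

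FOSB, a relative of FOS, separated the arms by position without passing. It read 6.33 and 6.36 on clone 5, 6.84 and 6.79 on clone 1, 5.51 on V1 and 6.02 and 6.10 on V3, so that every S100P-labelled array lay above every vector array. The difference between the arms was 0.74 (SE 0.19, adjusted p = 0.141). Within the arms it was -0.47 in clone 5 minus clone 1 and -0.55 in V1 minus V3, both called. JUNB, an AP-1 subunit that can oppose JUN, read 7.81 and 8.0 on clone 5, 8.25 and 8.38 on clone 1, 6.82 on V1 and 7.99 on both arrays of V3. Its low array was V1 (V1 minus V3 -1.18, SE 0.13, adjusted p = 0.00487). Clone 1 was 0.91 and clone 5 was 0.50 above the mean of the vector clones, both called. Against V3 alone the differences were 0.33 and -0.09 and neither passed.

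FOSL1 was the exception in this group, with no call in clone 1 minus the vector clones. FOSL1 (FRA-1), which ERK stabilises as a protein, read 10.00 and 10.24 on clone 5, 10.86 and 11.11 on clone 1, 11.39 on V1 and 10.62 and 10.77 on V3. It was lowest on clone 5 and highest on V1, and clone 5 was 0.92 below the vector clones (difference -0.92, SE 0.12, adjusted p = 0.00724). Against V3 alone the difference was -0.57 and did not pass (adjusted p = 0.0652). With the letters a and b as a replicate block, the same difference passed (adjusted p = 0.0214). Clone 1 differed from the vector clones by -0.06 (adjusted p = 0.850). FOSL2 (FRA-2) followed the group and read 7.04 and 6.92 on clone 5, 8.20 and 8.09 on clone 1, 7.30 on V1 and 7.63 and 7.30 on V3. Clone 1 was highest and clone 5 lowest, with a difference of -1.16 (SE 0.13, adjusted p = 0.0094), and all 4 other probe sets of FOSL2 were called lower too. JUND, which many resting cells express, was 1.01 higher in clone 1 than in the vector clones and 0.71 lower in clone 5 than in clone 1 (difference -0.71), both called. Its 3 other probe sets did not pass in any clone comparison.

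**Figure D4:**
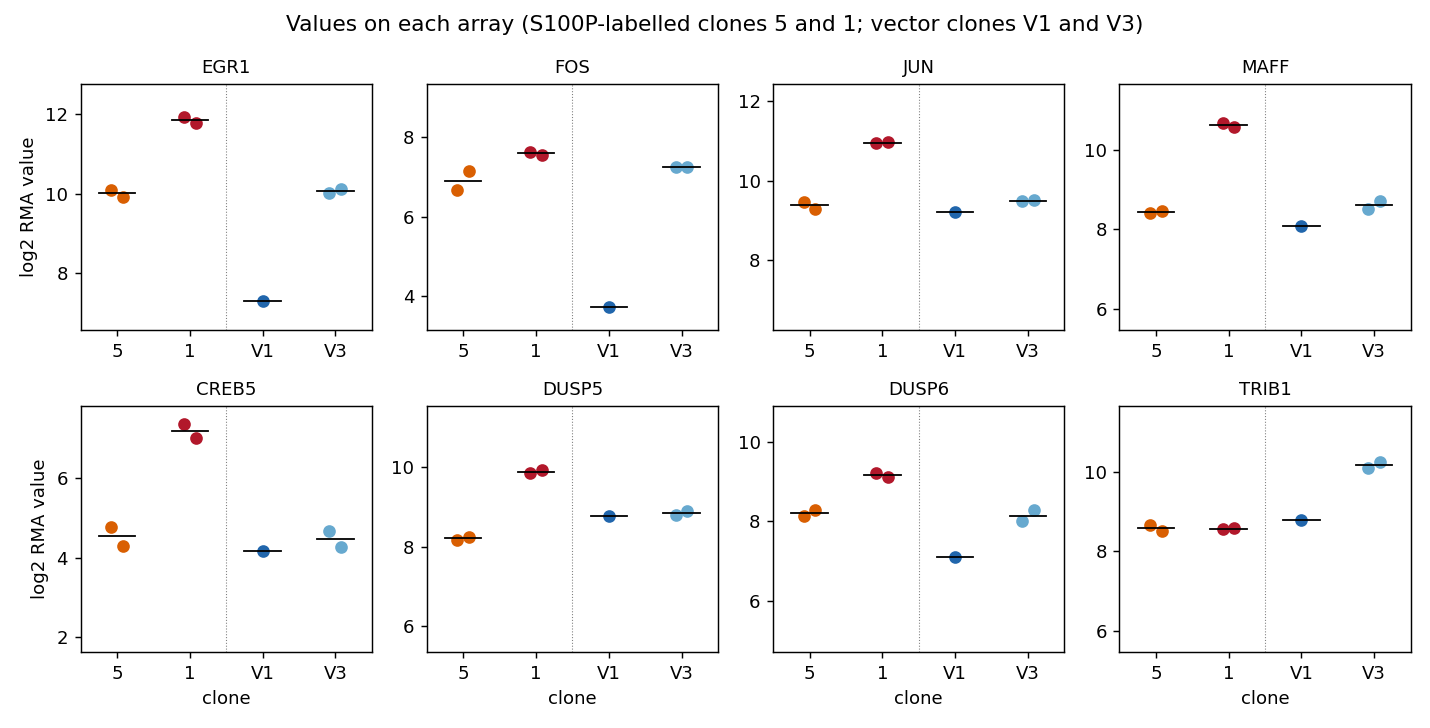
Log2 RMA values of 8 of the genes on every array, by clone (S100P-labelled clones 5 and 1, then vector clones V1 and V3), with points for arrays and lines for clone means. EGR1 and FOS are lowest on V1, at 7.29 and 3.73, JUN, MAFF, CREB5 and DUSP5 are highest on clone 1, and TRIB1 is highest on V3.

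Among the early response factors, 5 of 11 were lower in clone 5 minus clone 1, against 2.35% of all genes. In clone 1 minus the vector clones 6 of 11 were higher, against 11.7% of all genes. EGR1, a zinc-finger factor that ERK induces through the serum response factor, had the largest differences. It read 10.11 and 9.93 on clone 5, 11.94 and 11.77 on clone 1, 7.29 on V1 and 10.03 and 10.12 on V3. The values fell into 3 levels, with clone 5 beside V3, clone 1 above them and V1 below. Clone 5 minus clone 1 was -1.84 (SE 0.11, adjusted p = 0.00115) and V1 minus V3 was -2.78 (SE 0.13, adjusted p = 0.000678), and both of its other probe sets were called lower in each. Clone 5 was 1.34 above the mean of the vector clones (SE 0.10, adjusted p = 0.000898), but this turned to -0.05 against V3 alone. Clone 1 was 3.18 above that mean (SE 0.10, adjusted p = 1.39e-05), 1.79 above V3 alone and 4.57 above V1 alone. Between the arms the difference was 1.95 (SE 0.79, adjusted p = 0.378), and it was 0.87 without V1, 3.65 without V3, 0.57 without clone 1 and 2.63 without clone 5.

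Of the KLF factors, KLF4 moved in opposite directions in the S100P-labelled clones. KLF4, a factor linked to epithelial differentiation, read 5.66 and 5.80 on clone 5, 7.19 and 7.08 on clone 1, 6.42 on V1 and 6.40 and 6.46 on V3. The vector arrays lay between the clones. Clone 5 was below the vector clones (difference -0.70, SE 0.09, adjusted p = 0.00692) and clone 1 above them (0.71, SE 0.09, adjusted p = 0.00304), and the arms differed by 0.01 (SE 0.37). Its other, dimmer probe set gave -0.39 in clone 5 minus clone 1 and did not pass. KLF6 read 10.86 and 10.88 on clone 5, 11.82 on both arrays of clone 1, 10.44 on V1 and 10.76 and 10.96 on V3. Clone 1 was 1.17 above the vector clones (SE 0.09, adjusted p = 0.000481), and 3 of its 4 other probe sets passed in the same direction. KLF10, which TGF-beta also induces, read 8.75 and 8.73 on clone 5, 9.79 and 9.64 on clone 1, 9.15 on V1 and 9.68 and 9.45 on V3. Clone 5 was lowest, with a difference of -0.61 from the vector clones (SE 0.10, adjusted p = 0.0166), which was -0.41 and did not pass against V1 alone.

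MYC, which drives growth and ribosome production, was called lower in clone 5 minus clone 1 (difference -0.96) and higher in clone 1 than in the vector clones (0.80). IER2 was 0.92 and KLF2, best known from endothelium, was 0.59 higher in clone 1 than in the vector clones, both called. IER3 and IER5 passed in none of the comparisons, with IER3 between 11.10 and 11.58 and IER5 between 8.25 and 8.86 on the 7 arrays. EGR3 stayed between 2.64 and 3.0 and the orphan nuclear receptor NR4A1 between 5.71 and 5.88, in the dim range where RMA can compress differences, and neither passed.

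The PEA3 group of ETS factors, which ERK signalling both induces and activates, differed little. ETV5 read 10.33 and 10.28 on clone 5, 10.24 and 10.41 on clone 1, 9.62 on V1 and 10.15 and 10.22 on V3. All S100P-labelled arrays lay above all vector arrays, but closely, and the array apart was V1. Clone 5 was 0.40 (SE 0.09, adjusted p = 0.048) and clone 1 was 0.42 (SE 0.09, adjusted p = 0.0257) above the vector clones, and the arms differed by 0.35 (SE 0.15, adjusted p = 0.425). Against V3 alone the differences were 0.12 and 0.14 and neither passed, and between the arms the difference was 0.13 without V1 and 0.69 without V3, where it passed (adjusted p = 0.0453). Of its 4 other probe sets none passed for clone 5 and 2 did for clone 1. ETV1 stayed between 5.57 and 5.83 and ETV4 between 6.62 and 7.05, and neither passed in any comparison. The probe set of ETV1 was dim (mean 5.67) and of a type that can bind related transcripts, so its flat reading is uncertain. Of the 4 other probe sets of ETV1, all dim too, 1 was called lower in V1 minus V3 (-0.75).

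Of the 11 feedback inhibitors, 4 were lower in clone 5 minus clone 1, against 2.35% of all genes. In clone 1 minus the vector clones 4 were higher, against 11.7% of all genes. Both times these were SPRY2, DUSP1, DUSP5 and DUSP6. SPRY2, a Sprouty protein that restrains receptor signalling upstream of RAF, came closest to a call between the arms. It read 8.39 and 8.34 on clone 5, 9.16 and 9.14 on clone 1, 7.82 on V1 and 7.65 and 8.05 on V3. Every S100P-labelled array lay above every vector array, and the difference was 0.92, or 1.89-fold (SE 0.23, adjusted p = 0.136). The S100P-labelled clones differed from each other as well (clone 5 minus clone 1 -0.78, SE 0.14, adjusted p = 0.039). SPRY4, a second Sprouty protein, read 9.56 and 9.29 on clone 5, 9.26 and 9.44 on clone 1, 9.17 on V1 and 8.82 and 9.0 on V3. The arms did not overlap here either, with a difference of 0.37 (SE 0.13, adjusted p = 0.298), and no clone comparison passed. SPRY1 read 8.38 and 8.66 on clone 5, 8.50 and 8.47 on clone 1, 8.11 on V1 and 8.82 and 8.96 on V3. V1 minus V3 was -0.78 (SE 0.15, adjusted p = 0.0282), but the other SPRY1 probe set gave -0.02.

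The phosphatases with different places in the cell followed clone 1 as well. DUSP6, which acts on ERK in the cytoplasm, read 8.14 and 8.29 on clone 5, 9.21 and 9.12 on clone 1, 7.10 on V1 and 8.0 and 8.29 on V3. As with EGR1, clone 1 was highest, V1 was lowest, and clone 5 lay beside V3. V1 minus V3 was -1.04 (SE 0.15, adjusted p = 0.0116) and clone 1 was 1.55 above the vector clones (SE 0.11, adjusted p = 0.00036). The call for clone 5 (0.59, adjusted p = 0.0264) was lost against V3 alone, where the difference was 0.07. The 2 other probe sets of DUSP6 gave -0.93 and -0.65 in clone 5 minus clone 1 and did not pass. Both passed in V1 minus V3 and in clone 1 minus the vector clones. DUSP5, which acts on ERK in the nucleus, read 8.16 and 8.25 on clone 5, 9.84 and 9.92 on clone 1, 8.76 on V1 and 8.79 and 8.89 on V3. The vector arrays lay close together, between the clones. Clone 5 was below them (difference -0.60, SE 0.09, adjusted p = 0.01) and clone 1 was 1.08 above them (SE 0.09, adjusted p = 0.000498). DUSP1, a nuclear phosphatase of p38, JNK and ERK, read 10.01 and 10.21 on clone 5, 11.28 and 11.20 on clone 1, 10.11 on V1 and 10.33 and 10.51 on V3. Only clone 1 stood apart, 0.97 above the vector clones (SE 0.10, adjusted p = 0.00147), and of its 2 other probe sets 1 passed in clone 5 minus clone 1. SPRED1, SPRED2, DUSP2, DUSP4 and DUSP10 passed in none of the comparisons, with differences between the arms of -0.14 to 0.07, and DUSP4 and DUSP10 were dim. Their other probe sets passed in places: that of DUSP10, also dim, gave -0.76 in clone 5 minus clone 1 and 0.71 in clone 1 minus the vector clones, and 1 of the 2 others of SPRED2 gave 0.66 in V1 minus V3 and -0.43 in clone 5 minus the vector clones.

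The last 4 genes act on RNA, survival and protein docking. ZFP36 (tristetraprolin), which speeds the decay of mRNAs with AU-rich elements, many of them early response transcripts, read 11.78 and 11.96 on clone 5, 12.49 and 12.55 on clone 1, 11.31 on V1 and 11.54 and 11.66 on V3. All S100P-labelled arrays lay above all vector arrays, and the difference was 0.71 (SE 0.20, adjusted p = 0.183). MCL1, a BCL2 relative that blocks apoptosis, read 10.46 and 10.53 on clone 5, 11.31 and 11.34 on clone 1, 10.09 on V1 and 10.26 and 10.42 on V3. The arms did not overlap, with a difference of 0.67 (SE 0.24, adjusted p = 0.298), and clone 1 was 1.11 above the vector clones (SE 0.09, adjusted p = 0.000489). Both genes were also called lower in clone 5 minus clone 1, ZFP36 by a difference of -0.65 and MCL1 by -0.83. The arms overlapped in all 5 other probe sets of MCL1. Of these, 2 passed in clone 5 minus clone 1 and all 5 in clone 1 minus the vector clones.

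TRIB1, a pseudokinase that docks substrates to a ubiquitin ligase, was the only gene with all S100P-labelled arrays below all vector arrays. It read 8.66 and 8.51 on clone 5, 8.56 and 8.58 on clone 1, 8.78 on V1 and 10.08 and 10.26 on V3. V3 alone stood apart, and V1 lay near the S100P-labelled arrays. V1 minus V3 was -1.39 (SE 0.13, adjusted p = 0.00277), and between the arms the difference was -1.05 (SE 0.33, adjusted p = 0.234). Without V1 that difference was -1.59 with an adjusted p of 0.000355, and without V3 it was -0.20. Its 2 other, dimmer probe sets passed in none of the comparisons. PHLDA1, an early response gene product with a pleckstrin homology-like domain, stayed between 11.71 and 12.03 and passed in none, though of its 5 other probe sets 1 was called lower and 1 higher in clone 5 minus clone 1.

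**Figure D5:**
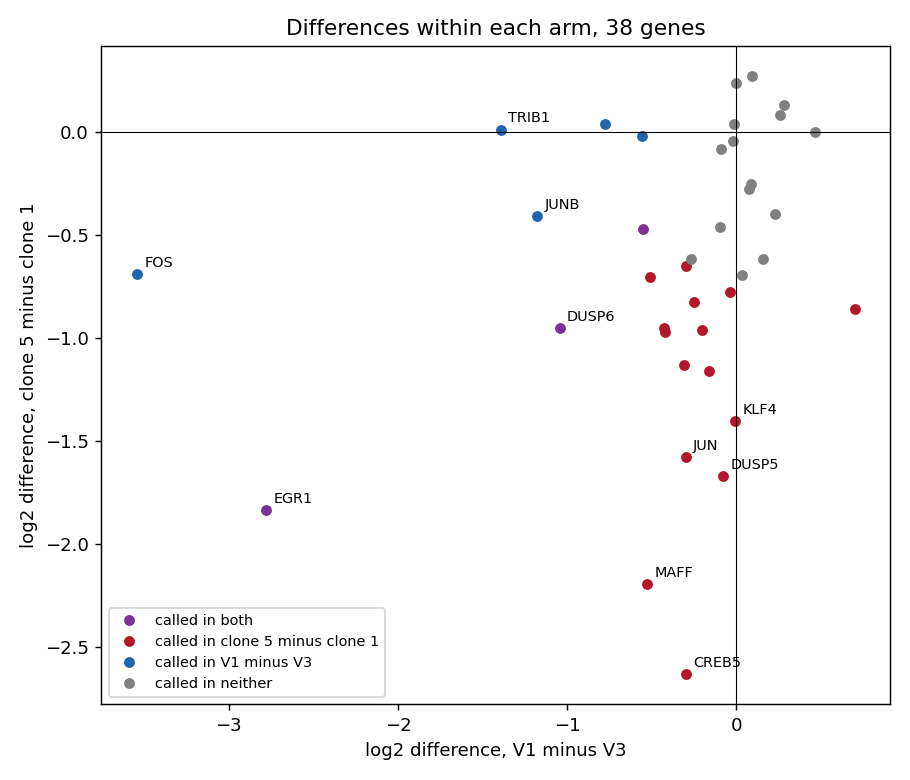
Difference in log2 value within the S100P-labelled arm (clone 5 minus clone 1, vertical) against that within the vector arm (V1 minus V3, horizontal) for the 38 genes, coloured by which was called. EGR1, DUSP6 and FOSB were called in both, CREB5, MAFF, DUSP5 and JUN lie low on the vertical axis alone, and FOS, TRIB1 and JUNB lie far left.

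Related genes outside the list were read from 4 further lists. Of 34 genes of the kinase cascade 28 were measured, from receptors to ERK and its nuclear partners. None passed between the arms, where 1.55% of all genes did. In clone 5 minus clone 1 there was 1 higher and 2 lower, against 0.673% and 2.35% of all genes, with a median of -0.03. The largest differences between the arms were those of RPS6KA5, a nuclear kinase downstream of ERK and p38 (1.06, SE 0.21, adjusted p = 0.0599), and of the receptor ERBB2 (0.76, SE 0.20, adjusted p = 0.154). Of 30 further early response genes 28 were measured. None passed between the arms. In clone 5 minus clone 1 there were 13 lower and 1 higher, against 2.35% and 0.673% of all genes, with a median of -0.46. In clone 1 minus the vector clones there were 13 higher and 2 lower, against 11.7% and 5.75% of all genes. ATF3, a stress-induced bZIP factor, had the largest difference between the arms (1.70, SE 0.82, adjusted p = 0.473), and it read 7.22 and 7.61 on clone 5, 10.52 and 10.46 on clone 1, 6.82 on V1 and 7.39 and 7.65 on V3. EREG, an EGFR ligand, came next (1.20, SE 0.36, adjusted p = 0.200).

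All 20 further feedback inhibitors were measured, and here 5 passed between the arms, 3 higher and 2 lower, against 1.03% and 0.526% of all genes. With the arrays of each clone averaged first, 0 of all 19775 genes were higher and 1 was lower. How these 5 genes stood in that fit, or with a clone left out, was not analysed here. TRIB2, a pseudokinase related to TRIB1, had a difference of -1.62 (SE 0.20, adjusted p = 0.0124). BTG1, an antiproliferative relative of BTG2, was 1.33 higher (SE 0.22, adjusted p = 0.0337). DUSP3, a small dual-specificity phosphatase, was 0.83 higher (SE 0.11, adjusted p = 0.0143), and DUSP7, a cytoplasmic ERK phosphatase, differed by -0.80 (SE 0.08, adjusted p = 0.00573). DUSP9 was the fifth, 0.67 higher (adjusted p = 0.0480). In clone 5 minus clone 1, 7 of the 20 were lower and 1 was higher, against 2.35% and 0.673% of all genes. Of 14 genes of the cAMP and CREB response 12 were measured. None passed between the arms, where CREB1 differed most (0.59, SE 0.28, adjusted p = 0.477), followed by CREB3L1 (-0.52, SE 0.48, adjusted p = 0.783). In clone 5 minus clone 1, 1 of the 12 was lower, against 2.35% of all genes.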

How the data were processed

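Total RNA of 7 Panc1 samples was hybridised to Affymetrix HG-U133 Plus 2 arrays. The deposited values are log2 values that the authors made with RMA, per the submitters' processing notes, and their range of 1.79 to 14.4 is that of a log2 scale. Which RMA version was used, and whether all 7 arrays went through it at once, is not given in the sources used here. RMA sets arrays to one distribution and can compress differences of dim probe sets. No detection calls were used.

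Of 54675 probe sets, 62 controls were left out, 54613 were tested and 41091 carried 1 gene symbol in the platform annotation (41037 matched by Entrez number), 1801 several and 11721 none. Samples were grouped by their labels. R 4.3.3 with limma 3.58.1 and statmod 1.5.0 fitted the arms with clone as a random block (consensus correlation 0.287) and, separately, the 4 clones. P-values were two-sided, adjusted by Benjamini-Hochberg over every tested probe set and read at 0.05, and the code was tested on simulated data. Figures used matplotlib 3.10.9.

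The genes, lists and tests were chosen with earlier results of these data known. Values on every array are given for up to 8 called genes of largest difference per clone comparison, for the 3 largest in each direction between the arms, and for genes whose arms did not overlap. No pairing of arrays by the letters a and b was seen: deviations of same-letter arrays correlated at 0.05 (clones 5 and 1), 0.06 (clone 5 and V3) and -0.08 (clone 1 and V3). These values are taken over all 54613 probe sets, dim ones included, and cannot exclude a weaker pairing. The number of arrays limits the precision.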

Additional observations from a re-analysis of the deposited data

Results flagged for a closer look

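The difference from the vector clones was not the same in both S100P-labelled clones for 18 of the 38 genes, tested as clone 5 minus clone 1 in the limma fit by clone (adjusted p under 0.05), since the vector clones cancel in that difference. All were lower in clone 5, where 2.35% of all genes were lower and 0.673% higher. Among the AP-1 subunits the differences were -2.63 for CREB5, -2.20 for MAFF, -1.58 for JUN, -1.16 for FOSL2, -0.86 for FOSL1, -0.71 for JUND and -0.47 for FOSB. Among the early response factors they were -1.84 for EGR1, -1.40 for KLF4, -0.97 for KLF10, -0.96 for MYC and -0.95 for KLF6. Among the feedback inhibitors they were -1.67 for DUSP5, -1.13 for DUSP1, -0.95 for DUSP6 and -0.78 for SPRY2. The remaining ones were -0.83 for MCL1 and -0.65 for ZFP36. With any 1 array of clone 5, clone 1 or V3 left out, 0 of the 38 passed, but 0 of all genes passed there either. No array of the S100P-labelled arm stood apart from the other 3 of that arm by Dixon's test for any of the 38 genes.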

How the results depend on the processing

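The median difference between the arms stayed positive, from 0.02 without clone 1 to 0.65 without clone 5. Genes called between the arms were 0 under every other analysis, 2 without clone 1, 12 without clone 5, 2 without clone V3, and 0 to 2 with 1 array left out. With the arrays of each clone averaged first, 0% of all genes were higher and 0.00506% lower. The count of 0 in that fit therefore cannot tell these genes from the rest. In the other analyses that kept every array, 0.92% to 1.87% of the genes tested were higher and 0.485% to 0.895% lower. KLF10 turned to 0.279 without clone 5 and 0.0819 without V3, and FOSL1 to 0.077 without clone 5. FOS ranged from -0.015 (without V1) to 1.76 with 1 array left out. Leaving out dim probe sets raised V1 minus V3 from 8 to 14 calls (2 higher, 12 lower), where 11.2% and 16% of the genes kept were called. With 1 array left out, calls ranged from 0 to 18 in clone 5 minus clone 1, 0 to 4 in V1 minus V3, 1 to 5 in clone 5 minus vector and 11 to 20 in clone 1 minus vector, where fewer arrays leave fewer degrees of freedom. With the letter as a replicate block, clone 5 minus clone 1 kept 18 calls, where 0.698% of all genes were higher and 2.43% lower. Clone 5 minus V3 had 5 calls against 4 without the block, with FOSL1 (adjusted p = 0.0214, limma) added, where 3.12% of all genes were higher and 2.18% lower. Clone 1 minus V3 had 20 in both, where 6.84% of all genes were higher and 3.22% lower with the block. Against V3 alone, clone 5 differed by -0.36 for FOS and by -0.0527 for EGR1, with or without the replicate block. V3 or V1 as the only vector clone was chosen after seeing the data. V1 has no letter, so no block was possible for V1 minus V3. Signal over background was not measured, which limits the dim genes. Causes were not tested.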
